A study of Mus musculus with 14 samples.

Results

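Fibro-adipogenic progenitors (FAPs) of wild-type (WT) mice were compared between 2 chemical injuries of the tibialis anterior muscle, glycerol and barium chloride (BaCl2). All WT libraries of the study were taken, 4 after glycerol and 3 after BaCl2, which is 7 of its 14 libraries. The other 7 are from SMA mice with the same injuries, 4 after glycerol and 3 after BaCl2, and are used here only to see whether a difference recurs. Each library is poly(A)-selected, strand-specific RNA sequencing of primary FAPs isolated with magnetic beads 3 days after injury and starting from 50 ng of total RNA. The labels give no allele for SMA and no strain, age, sex, beads' antibody, number of animals per library or uninjured sample, and they do not say that replicates are separate animals. The spread between libraries may therefore be partly technical.

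FAPs are the Pdgfra-positive stromal cells between muscle fibres. After damage they multiply, lay down matrix and send signals to macrophages and muscle stem cells, and they are the source of the fat that can replace fibres. BaCl2 kills fibres and is followed by good regeneration with little fat, whereas glycerol injection is the usual model of fatty degeneration, in which fat cells become visible some days later than the time studied here.

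The comparison has a limit that touches each value below. The batch label of a library is its injury, the BaCl2 libraries were deposited as whole read counts and the glycerol libraries as normalized values in a separate table, so injury, batch, table and unit cannot be told apart. For this reason each library was rescaled to parts per 1000000 (ppm) of its own sum over the 14302 genes present in both tables, and no p-value was computed across the tables. The BaCl2 libraries held between 121343964 and 136437776 counts each, so that 1 ppm was at least 119 counts, and the depth behind the glycerol values is unknown. A difference is the mean of log2(ppm + 1) over the 4 glycerol libraries minus that over the 3 BaCl2 libraries, given with its standard error (SE) from the spread within the injuries; adding 1 makes it understate the change of low genes. A gene is called higher or lower when the difference is at least 1, which is about 2-fold, and every glycerol library lies on the same side of every BaCl2 library. Of the genes in both tables, 12422 had a mean of at least 1 ppm and were compared.

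Sex-linked genes divided the libraries by injury. The Y-linked histone demethylase gene Kdm5d was at 24.6, 23.1 and 23.6 ppm in the BaCl2 libraries and at 0.964, 0.783, 0.927 and 0.693 ppm in the glycerol libraries. Uty, also Y-linked, was at 19.1 to 19.2 ppm after BaCl2 and at 0.25 to 0.396 ppm after glycerol. Xist, the RNA of the silenced X chromosome, had 2 to 26 counts in the BaCl2 libraries. The Y-linked Ddx3y had 11035 to 14862 counts there and Eif2s3y, also Y-linked, 4372 to 5831. Xist, Ddx3y and Eif2s3y have no row in the glycerol values used here. The X-linked Kdm6a and Ddx3x, which partly escape silencing and were chosen after their values were seen, lay the other way from Kdm5d and Uty. Kdm6a was at 38.3 to 44.7 ppm after BaCl2 and 56.3 to 65.2 ppm after glycerol, and Ddx3x at 645 to 679 against 767 to 809 ppm. Eif2s3x and Kdm5c, X-linked genes picked with them, are not reported here. The SMA libraries had the same division, with differences of -3.71 for Kdm5d and -4.05 for Uty. The sex of the mice is not in the labels, and whatever sets these genes cannot be told apart from the injury in any comparison below.

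**Figure D1:**
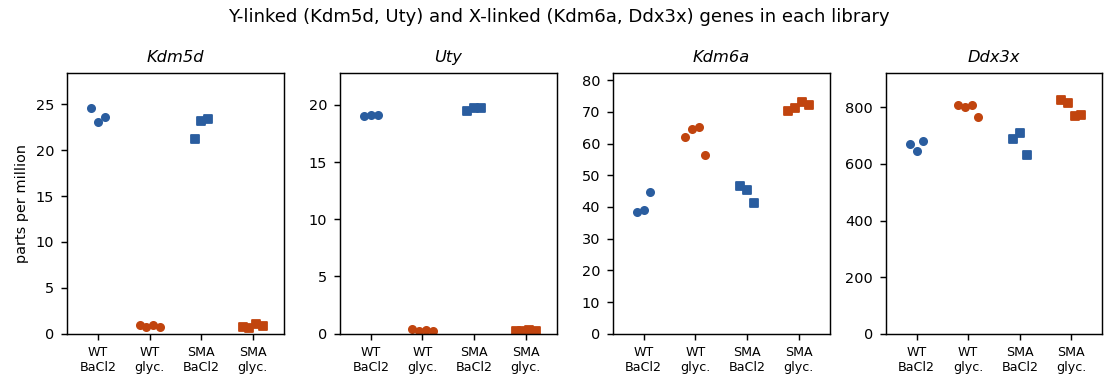
Level of Y-linked Kdm5d and Uty and of X-linked Kdm6a and Ddx3x in ppm (y axis) in each library (points: circles WT, squares SMA; blue BaCl2, orange glycerol). In both genotypes the Y-linked genes are near 0 after glycerol only, and in WT all 4 glycerol libraries lie above all 3 BaCl2 libraries for both X-linked genes.

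Many of the largest differences belonged to genes that overlap or resemble others. Of the 12422 genes, 541 were called higher after glycerol (4.36%) and 129 lower (1.04%), so that 80.7% of calls were higher. The largest higher calls were taken among genes with a mean of at least 10 ppm after either injury. Predicted, pseudogene, mitochondrial, histone and ribosomal protein genes were left out. The 12 largest were Cpne1, Nme2, Pakap, Ilk, Ube2v1, Ptp4a1, Or51v8, Chtf8, Entpd4, Cfb, Ccpg1 and C1qtnf5. All 12 share exons or sequence with another gene. Cpne1 was at 124 to 145 ppm in the glycerol libraries and at 0.0225 to 0.112 ppm in the BaCl2 libraries, and 84.1% of its exon bases are covered by another gene. Ilk, the integrin-linked kinase of focal adhesions, was at 168 to 178 against 0.651 to 1.2 ppm, with 89.7% of its exon bases covered. A gene was therefore called distinct when at most 5% of the 50-base words of its transcripts occur in another gene and at most 10% of its exon bases are covered by another, measured in the GENCODE vM21 annotation; this class was set after the differences were seen. Distinct genes were 9644 of those compared, and among them 79 were higher (0.819%) and 80 lower (0.83%). The other 2778 genes held 462 of the higher and 49 of the lower calls. Their differences had a standard deviation (SD) of 1.13, against 0.36 for distinct genes. The near balance of 79 and 80 calls depends on the scaling. With shares taken over distinct genes alone, 9837 of them were compared, and 121 were higher and 70 lower. Of those calls 63.4% were higher. Both a transcript quantifier and a gene counter are named in the submitters' processing notes, without the table each made, and their part was not tested. Differences of genes that are not distinct are uncertain, and are marked so below.

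**Figure D2:**
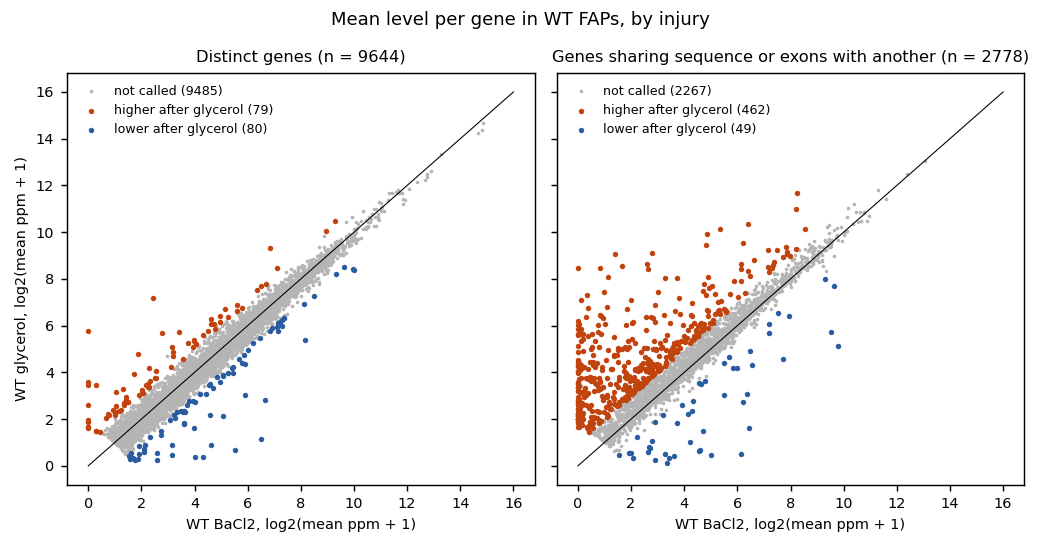
Mean level per gene, as log2(mean ppm + 1), in the 3 WT BaCl2 libraries (x axis) and the 4 WT glycerol libraries (y axis), for distinct genes (left) and genes that share sequence or exons (right); orange and blue points are called higher and lower after glycerol, grey points are not called, and the line marks equal levels. The distinct genes lie close to the line with 79 higher and 80 lower calls, while the other genes form a cloud of 462 higher calls, many near 0 after BaCl2.

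Some distinct genes were nearly absent on one side. The splicing gene Ik was at 95.9, 86.5 and 86.4 ppm after BaCl2 and at 1.79, 1.29, 1.13 and 0.788 ppm after glycerol. Psd (41.5 to 49.9 against 0.475 to 0.81 ppm) and the splicing helicase Ddx46 (91.3 to 103 against 4.04 to 7.71 ppm) had the same form. Gpx1, a glutathione peroxidase, went the other way, from 4.22 to 4.77 ppm after BaCl2 to 131 to 156 ppm after glycerol. In the SMA libraries these 4 genes had differences of -5.53, -4.78, -3.66 and 4.75. Moreover, 8 of the 79 higher distinct genes had no count at all in the 3 BaCl2 libraries. Gene groups are described below by all their members.

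Genes induced by interferon lay above after glycerol. Interferons are antiviral signals that induce a common set of genes, and macrophages and stromal cells of damaged muscle respond to them. All 24 distinct members of the 32 compared had a positive difference, with a median of 0.79, and in 14 of them every glycerol library lay above every BaCl2 library, which 14.4% of distinct genes did. Among the 24, 5 were called higher and none lower, against 0.819% of distinct genes called higher. The antiviral GTPase gene Mx1 was at 8.3, 6.94 and 8.98 ppm in the BaCl2 libraries and at 13.4, 32.3, 28.8 and 24.7 ppm in the glycerol libraries, a difference of 1.45 (SE 0.29). Usp18, which removes ISG15 from proteins and damps interferon signalling, was at 17.7, 20.2 and 19 ppm against 30.1, 59.8, 53.9 and 47.8 ppm (difference 1.25, SE 0.22). Rsad2, which encodes viperin, was at 34.2, 26 and 29.2 ppm against 34.5, 94.6, 86.2 and 66.2 ppm (difference 1.12, SE 0.34). The nucleic acid sensor Zbp1 and Mx2 had differences of 1.06 and 1.07.

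Glycerol library 1 stood low in this group. The summed level of the interferon list was 1411 to 1512 ppm in the BaCl2 libraries, 1780 ppm in glycerol library 1 and 2700 to 3376 ppm in the other 3. Irf7, a transcription factor of the response, was at 80.3 ppm in glycerol library 1, inside the BaCl2 range of 78 to 85.8 ppm, and at 141 to 217 ppm in the rest. Without this library 12 of the 24 distinct members were called higher and all 24 were above every BaCl2 library; without glycerol library 2, 2 were called, and without library 3, 3. Genes of MHC class I antigen presentation, which interferon also induces, lay the same way at a smaller size: all 7 distinct members were positive with a median of 0.41 and none was called, among them B2m, the light chain of MHC class I, at 452 to 486 ppm against 535 to 791 ppm.

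The interferon-stimulated response element was searched in the 250 bases before the start of each gene in RefSeq (GRCm38.p6), as GAAA, any 2 bases and GAAA again, on either strand. It occurs in 13 of the 24 interferon list members that have an entry, and in 936 of all 27025 genes (3.46%). The stretches around it in 3 distinct members whose glycerol libraries were all above the BaCl2 libraries show how the same letters recur, with the match in capitals and each stretch read 5′ to 3′ along the gene. Rsad2 is shown at chr12:26456538-26456597 (minus strand), Isg15, which encodes the ubiquitin-like protein of the response, at chr4:156200856-156200915 (minus strand), and Stat2, a transcription factor of the response, at chr10:128270251-128270310 (plus strand).
Rsad2: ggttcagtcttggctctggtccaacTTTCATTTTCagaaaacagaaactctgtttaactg
Isg15: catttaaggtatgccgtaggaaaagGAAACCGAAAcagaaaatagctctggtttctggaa
Stat2: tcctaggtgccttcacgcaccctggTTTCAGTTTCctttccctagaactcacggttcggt
The matches begin 120, 72 and 222 bases before the gene's start, and that of Isg15 is 1 of 3 that overlap. A match describes the letters in the window and says nothing of what binds there.

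Genes of glycolysis and the response to low oxygen mostly lay above after glycerol. These genes are held together by the factor HIF-1, which is degraded when oxygen is plentiful. Of 21 distinct members 17 had a positive difference, with a median of 0.31, 10 had every glycerol library above every BaCl2 library, 3 were called higher and none lower. Among all distinct genes 14.4% lay above in this way and 0.819% were called higher. Egln3, an oxygen-sensing hydroxylase that HIF induces, was at 2.22, 0.89 and 1.38 ppm after BaCl2 and at 11.1, 8.66, 5.82 and 9.46 ppm after glycerol (difference 1.97, SE 0.28). Slc16a3, the lactate exporter, was at 42, 20.3 and 28.4 ppm against 95.3, 73.9, 74.9 and 90 ppm (difference 1.49, SE 0.31). Pdk1, the kinase that keeps pyruvate out of mitochondria, was at 25.3, 18 and 22.3 ppm against 56.3, 53.9, 46.3 and 57.3 ppm (difference 1.26, SE 0.15). None of the 3 overlapped between injuries. Smaller differences were those of Vegfa, the vessel growth factor (0.53, SE 0.08), and Pfkl, the liver-type phosphofructokinase (0.78, SE 0.11). The hexokinase gene Hk2 was an exception, at 532 to 565 ppm after BaCl2 and 350 to 438 ppm after glycerol. Bnip3 (2.19), Pgam1 (1.24), Ankrd37 (1.07) and Gapdh (3.94) were also called but are not distinct.

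The core of the hypoxia response element was searched in the same windows as ACGTG on either strand. It was present for 20 of the 31 list members with an entry, and for 4998 of the 27025 genes (18.5%). The other form of the core, GCGTG, was present for 19 of the 31 members and for 30.9% of genes. Of the 3 distinct members called higher, 2 carry ACGTG and 1 carries GCGTG. Egln3 (chr12:54204074-54204124, minus strand), Slc16a3 (chr11:120949015-120949066, plus strand) and the glucose transporter gene Slc2a1 (chr4:119108684-119108738, plus strand) are shown because their glycerol libraries all lay above the BaCl2 libraries, with 1 match of each in capitals.
Egln3: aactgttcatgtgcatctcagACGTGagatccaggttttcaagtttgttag
Slc16a3: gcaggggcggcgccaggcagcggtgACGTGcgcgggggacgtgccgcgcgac
Slc2a1: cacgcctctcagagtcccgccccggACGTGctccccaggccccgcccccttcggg

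The list of metallothioneins and metal transport had no common direction: of 7 distinct members 4 were positive and 3 negative, and the median was 0.10. Called higher were 2, Slc40a1 and Slc30a1, where 0.819% of all distinct genes were. Slc40a1, which encodes the iron exporter ferroportin, was at 12, 9.84 and 7.06 ppm after BaCl2 and at 55.9, 52.8, 37 and 63.8 ppm after glycerol, a difference of 2.33 (SE 0.26). Hmox1, the haem oxygenase that frees iron from haem, was at 622, 652 and 572 ppm against 1477, 1451, 1494 and 1326 ppm (difference 1.22, SE 0.07). The ferritin heavy chain gene Fth1 was at 1274 to 1317 ppm against 1807 to 2041 ppm without being called. The zinc exporter Slc30a1 was at 14.5 to 14.9 ppm against 35.9 to 44.7 ppm, while the metallothionein gene Mt1 was at 216 to 235 against 144 to 191 ppm. Of the 17 distinct members of the oxidative stress list 13 were positive with a median of 0.22 (0.36 with GC centring). Called higher among them were 2, Hmox1 and Gpx1, against the same 0.819% of all distinct genes.

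Chemokine genes and genes known from macrophages were called in both directions. Arg1, the arginase of wound macrophages, was at 4.52, 1.16 and 2.24 ppm after BaCl2 and at 45.8, 16.1, 16.4 and 27.7 ppm after glycerol (difference 2.90, SE 0.52). The chemokine gene Ccl6 was at 28.7, 17.8 and 25.2 ppm against 92.9, 63.3, 72.6 and 80.3 ppm (difference 1.67, SE 0.23). Ccl8, a monocyte chemoattractant, was at 4.28, 4.38 and 3.14 ppm against 12.2, 19.6, 16 and 20.1 ppm (difference 1.85, SE 0.20). Further higher genes of this kind, named after their values were seen, were the lectins Clec4n (1.94) and Clec4d (1.16), the platelet and macrophage factor Pf4 (1.48), the scavenger receptor Msr1 (1.07) and Ccl12 (1.55). The Msr1 difference was 0.94 without glycerol library 1 and 0.92 without BaCl2 library 2, under the size of a call. Il1b, an inflammatory cytokine also named after its values were seen, was lower, at 60.7, 30.9 and 36.3 ppm after BaCl2 and 21.1, 16.3, 16 and 18.4 ppm after glycerol, and its difference of -1.15 became -0.87 without BaCl2 library 1. Cxcl13, the B cell chemoattractant, was at 4.08 to 6.46 ppm against 0.313 to 2.98 ppm. Over the 28 distinct members of the cytokine and chemokine list 2 were called higher and 2 lower, against 0.819% and 0.83% of all distinct genes. The median of the list was 0.00. Glycerol library 4 stood apart in the sum of this list, at 12870 ppm against 8287 to 8673 ppm in the other glycerol libraries, and without it the median was -0.21.

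No distinct macrophage marker was called, where 0.819% of all distinct genes were called higher and 0.83% lower. Of 20 distinct monocyte and macrophage markers 18 were positive with a median of 0.34, and 7 had every glycerol library above every BaCl2 library, as 14.4% of distinct genes did. Without BaCl2 library 1, which had the highest sum of the BaCl2 libraries, 17 did and 1 was called, and without glycerol library 2, 12 did. The list summed to 1596 to 2328 ppm in the BaCl2 libraries and 2134 to 2667 ppm in the glycerol libraries, so the ranges overlapped. Over distinct members alone the sums were 973 to 1432 and 1302 to 1536 ppm. The part of macrophages in the differences of chemokine genes was not tested. In bulk RNA more cells of a type and more RNA per cell cannot be told apart.

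MHC class II genes mark antigen-presenting cells, and 4 of the 5 distinct members lay below in every glycerol library, as 26.7% of distinct genes did, and 2 were called lower, as 0.83% were. H2-Aa was at 40.3, 25.4 and 25.3 ppm after BaCl2 and at 9.09, 10.4, 11.5 and 13 ppm after glycerol (difference -1.36, SE 0.24). H2-Eb1 (-1.05, SE 0.24) was also called, but was -0.83 without BaCl2 library 1 and -0.97 without glycerol library 1. Cd74 (-0.84) and H2-Ab1 (-0.72) lay below in every library, and Ctss, a protease of the same path, lay above (0.52). In SMA the same genes had differences of 0.29 for H2-Aa and 0.39 for H2-Eb1. Whether the 2 genotypes differ was not tested.

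**Figure D3:**
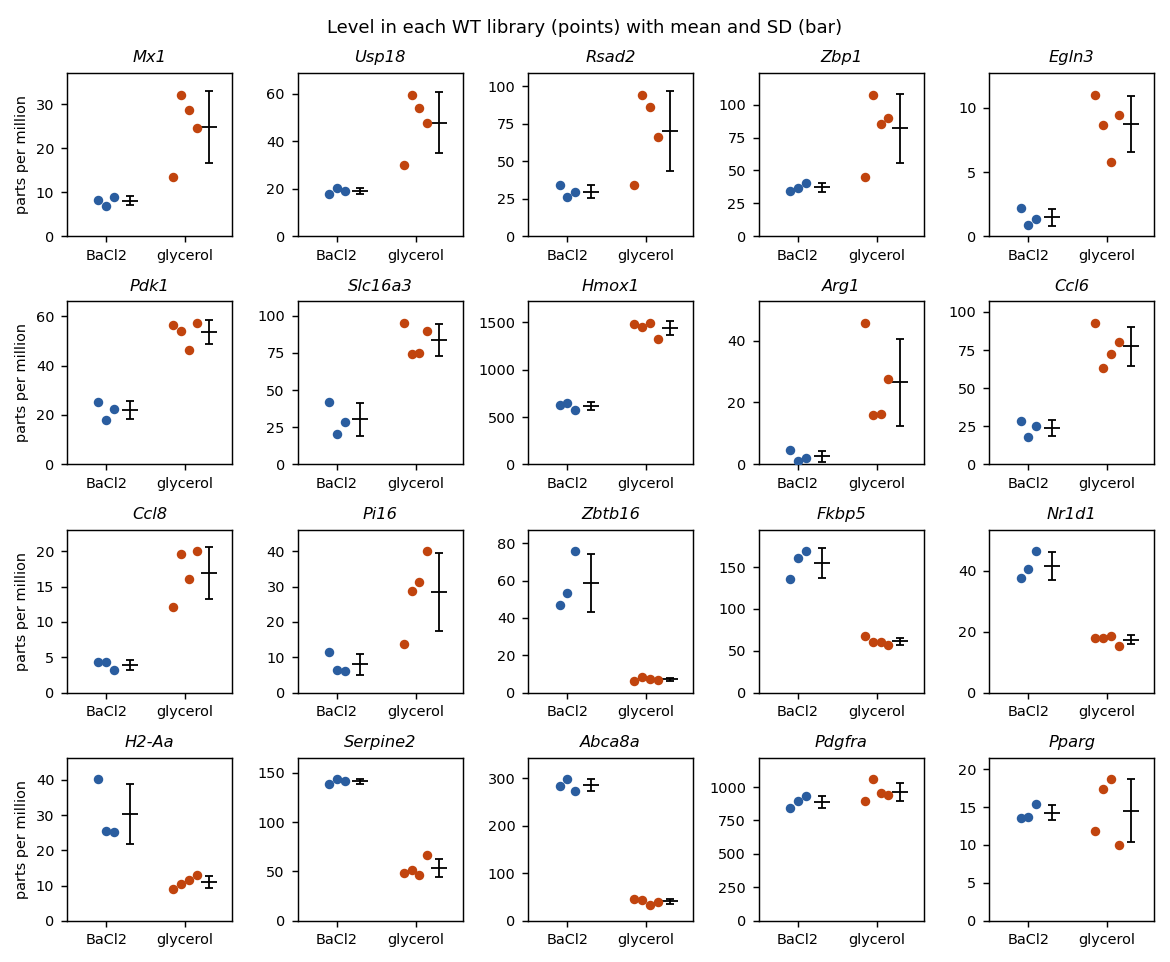
Level in ppm (y axis, from 0) of 20 distinct genes in each WT library (points: blue BaCl2, orange glycerol), with the mean and SD of each injury as a black bar. Glycerol library 1, the leftmost orange point, is lowest for the interferon genes Mx1, Usp18, Rsad2 and Zbp1, while Zbtb16, Fkbp5, Nr1d1, Serpine2 and Abca8a separate with no overlap and Pdgfra and Pparg overlap.

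FAP identity genes were present in all 7 libraries. Pdgfra, the defining receptor, was at 839, 896 and 933 ppm after BaCl2 and at 895, 1060, 955 and 939 ppm after glycerol, which overlap (difference 0.11, SE 0.07). Ly6a, which encodes the sorting marker Sca-1 and is not distinct, was at 334 to 425 against 486 to 793 ppm. Of 21 distinct markers 4 lay above in every glycerol library, 8 lay below, and the rest overlapped. Of all distinct genes 14.4% lay above and 26.7% below in this way. Pi16, which marks a progenitor-like state of fibroblasts, was at 11.4, 6.51 and 6.11 ppm after BaCl2 and at 13.8, 28.6, 31.4 and 40.1 ppm after glycerol (difference 1.66, SE 0.41), and Dpp4 was at 4.71 to 6.94 against 10.3 to 12.4 ppm. Osr1, a transcription factor of muscle connective tissue, was at 33.9 to 35 ppm against 18.9 to 22.4 ppm, and Smoc2, a matrix protein of FAPs, at 485 to 505 against 305 to 351 ppm. Pi16 was the 1 marker called higher and none was called lower, against 0.819% and 0.83% of all distinct genes. The median was -0.23. It was -0.11 without glycerol library 3, -0.15 with shares over distinct genes alone and -0.13 with GC centring.

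Genes of the fat cell programme had no common direction at this time. Pparg, the master regulator of fat cells, was at 13.6, 13.7 and 15.4 ppm after BaCl2 and at 11.9, 17.4, 18.7 and 10.1 ppm after glycerol (difference -0.01, SE 0.21). Its partner Cebpa was at 61, 53.4 and 58.9 ppm against 67.2, 62.8, 76.9 and 51.2 ppm. Lpl, the lipase that takes up fatty acids, had 585 to 649 against 605 to 826 ppm, and the fatty acid binding protein gene Fabp4 23.8 to 55.3 against 39.9 to 50.7 ppm. Some mature fat cell genes were low after both injuries: Plin1, which coats fat droplets, was at 1.26 to 1.7 ppm after BaCl2 and 0.152 to 1.63 ppm after glycerol, and Adipoq, which encodes adiponectin, was under 0.23 ppm in every library. Other fat cell genes could not be compared. Lep, Retn, Cfd, Cidea, Cidec and Pck1 were not found among the genes present for both injuries, and Adipoq, Plin4 and Slc2a4 fell under the minimum. Of the 17 distinct adipogenic transcription factors none was called, where 0.819% of all distinct genes were called higher and 0.83% lower. The median difference of these factors was 0.02. Among them Ebf2, a factor of fat precursors, lay above without being called, at 58.9 to 67 ppm against 77.6 to 116 ppm.

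Of the 19 distinct mature fat and droplet genes 1 was called higher and 1 lower, against 0.819% and 0.83% of all distinct genes. Cd36, the fatty acid transporter that macrophages and endothelium also carry, was at 116, 63 and 87.5 ppm after BaCl2 and at 247, 191, 195 and 199 ppm after glycerol (difference 1.25, SE 0.27). Angptl4, an inhibitor of lipoprotein lipase, was at 395, 337 and 352 ppm against 151, 146, 144 and 166 ppm (difference -1.25, SE 0.08). Cebpd, an early adipogenic factor that is not distinct, was lower, at 222 to 275 against 69.5 to 93.3 ppm. Among the 17 distinct genes that restrain fat formation 1 was called higher and 1 lower, beside the same shares of all distinct genes. Hes1, a Notch target, was higher, at 31.2, 33.1 and 37.9 ppm against 105, 114, 109 and 86 ppm (difference 1.57, SE 0.12). Klf2 was lower, at 142 to 177 against 60 to 87.6 ppm (difference -1.09, SE 0.17), with -0.9994 without glycerol library 4 and -0.9996 without BaCl2 library 1, just short of a call.

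No collagen gene was called, where 0.83% of distinct genes were called lower, although the differences were all of one sign. All 18 compared members are distinct and had a negative difference, with a median of -0.38; 13 lay below in every glycerol library, which 26.7% of distinct genes did. Col1a1, the main chain of type I collagen, was at 27854, 29367 and 29601 ppm after BaCl2 and at 20099, 21268, 18896 and 24551 ppm after glycerol. Together the collagen genes took 112660 to 119370 ppm of the BaCl2 libraries and 82315 to 101530 ppm of the glycerol libraries. Differences were more negative at high GC content of transcripts among distinct genes, with a median of 0.04 in the lowest decile and -0.23 in the highest (Spearman's rho -0.32 across 9644 genes, which are not independent replicates), and the median GC content of the collagens is 56.0%. Taking off the median of genes of like GC content left -0.22, with 9 members below in every glycerol library, and ranks also left 9.

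Other stromal lists differed in their calls. Of 17 distinct myofibroblast and contractile genes and 31 matrix proteins and crosslinking enzymes none was called. Of 21 distinct matrix proteases and inhibitors 2 were called lower, while 10 lay below in every glycerol library and 2 above. Of all distinct genes 0.819% were called higher and 0.83% lower, while 26.7% lay below in this way and 14.4% above. Acta2, the smooth muscle actin of myofibroblasts, was at 192 to 210 ppm against 89.9 to 133 ppm without being called. Serpine2, a protease inhibitor, was at 139, 144 and 141 ppm against 48.5, 51.2, 46.4 and 66.6 ppm (difference -1.41, SE 0.12). Adamts4, which cuts aggrecan, was at 570 to 770 against 219 to 377 ppm (difference -1.14, SE 0.22). Abca8a, a lipid transporter, had 1 of the largest lower differences, at 283, 299 and 274 ppm against 46.6, 44.1, 34 and 38.7 ppm (difference -2.78, SE 0.11). The hyaluronan synthase gene Has1 (-1.12) and Tnfsf11, which encodes RANKL (-1.42), were also lower, both named after their values were seen.

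Targets of glucocorticoid hormones mostly lay below after glycerol. Of 9 distinct members 8 were negative with a median of -0.50, 6 lay below in every glycerol library and 2 were called lower, against 26.7% and 0.83% of distinct genes. Of the 2 members that are not distinct, Mt2 was called higher (4.30) and Cebpd lower. Zbtb16, a zinc-finger factor that the glucocorticoid receptor strongly induces, was at 46.8, 53.5 and 76 ppm after BaCl2 and at 6.46, 8.49, 7.07 and 6.71 ppm after glycerol (difference -2.84, SE 0.22). Fkbp5, a chaperone of that receptor, was at 135, 161 and 169 ppm against 67.7, 60.6, 60.2 and 57.4 ppm (difference -1.32, SE 0.11). Per1 and Klf9, also targets, had differences of -0.91 and -0.71. The clock gene Nr1d1 was at 37.6, 40.6 and 46.6 ppm against 17.8, 17.9, 18.8 and 15.2 ppm (difference -1.21, SE 0.11), and Arntl, which peaks in the opposite phase, lay above at 15.9 to 19 against 20.5 to 28.7 ppm. Of the 13 distinct clock genes 10 were negative and 3 positive, with a median of -0.32 (-0.22 with GC centring). In 7 of them every glycerol library lay below and in 1 above, against 26.7% and 14.4% of distinct genes. Called lower was 1, against 0.83%, and none was called higher. The hour of collection is not in the labels and its part was not tested. Genes of the immediate early list, named after their values were seen, went both ways. Egr1 was at 1011, 1022 and 1074 ppm against 341, 375, 349 and 264 ppm, and Socs3, an inhibitor of cytokine signalling, at 872 to 1190 against 279 to 409 ppm. Fos lay the other way without being called (difference 0.70), as did the heat-shock gene Hsph1, which was called (1.36). Such genes also respond to the dissociation of tissue, whose part was not tested.

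**Figure D4:**
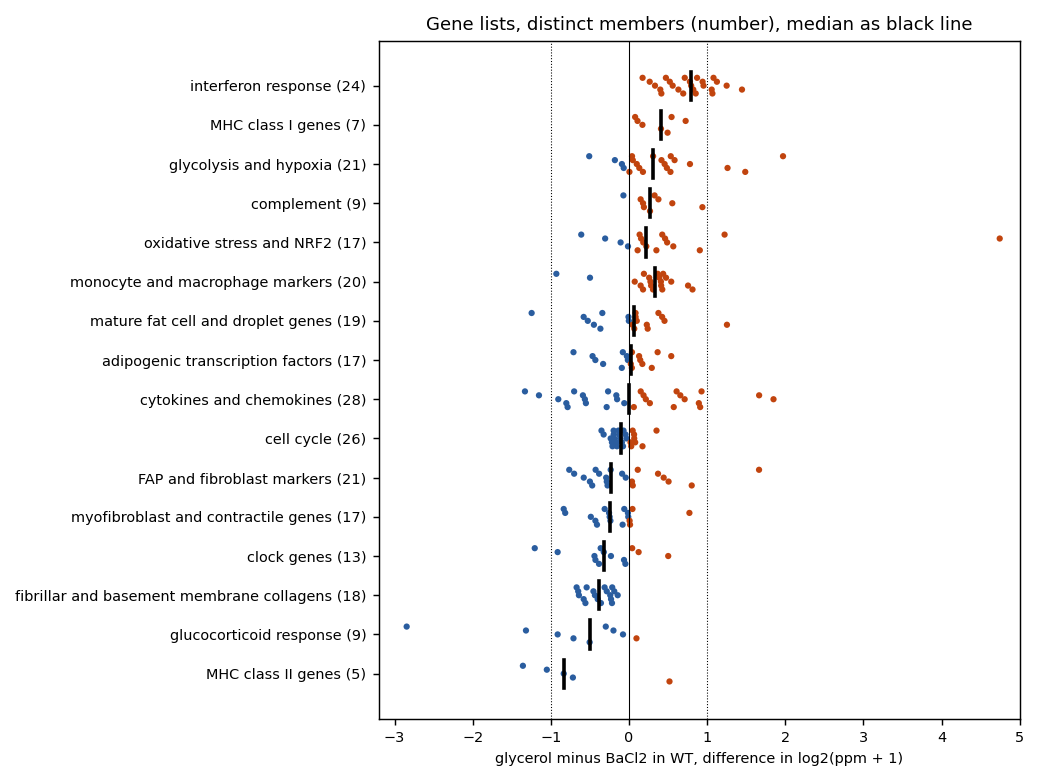
Difference between glycerol and BaCl2 in WT libraries in log2(ppm + 1) (x axis) for the distinct members of 16 gene lists (rows, number of members in brackets); each point is a gene, orange above and blue below 0, black lines are medians and dotted lines mark differences of 1. The interferon list lies wholly to the right with a median of 0.79, collagens wholly to the left with -0.38, and adipogenic factors centre on 0.02.

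Markers of other cell types differed widely in summed level, and the sums of the monocyte and macrophage markers are given above. Endothelial markers summed to 354 to 619 ppm after BaCl2 and 380 to 494 ppm after glycerol. None of the 15 distinct members was called, where 0.819% of all distinct genes were called higher and 0.83% lower. Pericyte and smooth muscle markers summed to 513 to 580 against 382 to 463 ppm, with Des, the intermediate filament of muscle cells and pericytes, lower at 37.3 to 47.4 against 13.5 to 16.3 ppm. Tenocyte markers summed to 1400 to 1628 against 637 to 813 ppm, a list that Egr1 dominates. Myofibre markers summed to 8.5 to 11.7 against 9.97 to 16.04 ppm and red cell markers to 0.4 to 1.21 against 2.19 to 5.38 ppm. Lymphocyte and dendritic cell markers summed to at most 11.7 ppm in any library. Satellite cell and myoblast markers summed to 472 to 490 ppm after BaCl2 and 448 to 491 ppm after glycerol. Neutrophil markers summed to 73.7 to 84.3 against 54.1 to 62.8 ppm, with 2 of their 4 distinct members positive and 2 negative.

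The SMA libraries, which the WT calls did not use, were compared in the same way. They come from the same tables and batches, so a difference between tables would recur in them too. Of 79 distinct genes higher after glycerol in WT, 77 were compared in SMA and 44 were called higher; of 80 lower, all were compared and 58 were called lower. No gene was called in opposite directions. In SMA 1.44% of 9737 distinct genes were called higher and 1.85% lower. The interferon list was positive in SMA as well, with a median of 1.69 over its distinct members, against 0.79 in WT, and Mx1 had a difference of 2.24 (SE 0.25). Zbtb16 (-2.27), Slc40a1 (2.51), Hes1 (1.89), Pi16 (1.49) and Fkbp5 (-1.71) were called in SMA in the direction seen in WT. Arg1 (0.80), Ccl6 (0.12), Msr1 (0.03) and H2-Aa (0.29) were not. The collagen median was -0.16 and that of the glucocorticoid targets -0.18 in SMA. Lpl had a difference of 0.88 and Pparg of 0.55 in SMA, neither called. Endothelial markers, none of them called in WT, had a median of -1.30 over distinct members in SMA with 11 of 16 compared called lower, and pericyte markers had -0.81 with 5 of 11 lower. Their part in the SMA calls was not tested. The difference between genotypes in any of these was not tested.

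**Figure D5:**
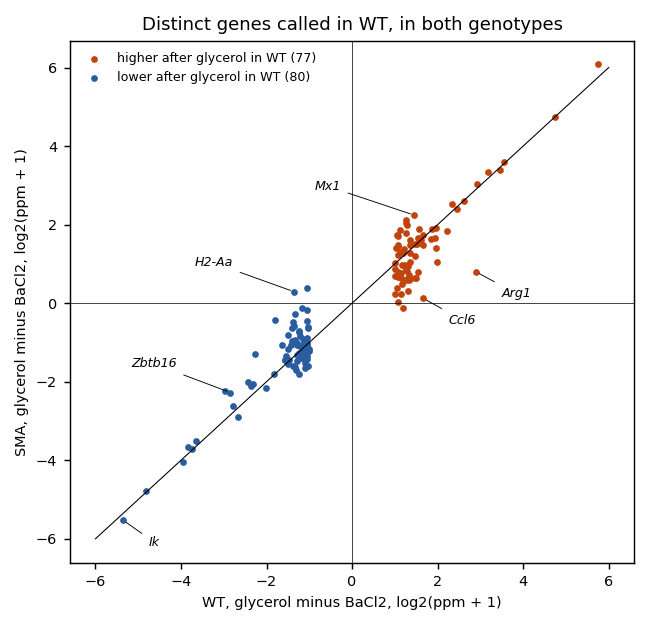
Difference between glycerol and BaCl2 in log2(ppm + 1) in WT (x axis) and in SMA (y axis) for 157 distinct genes called in WT and compared in SMA, orange for 77 higher and blue for 80 lower; the diagonal marks equal differences. Of these genes, 76 higher and 78 lower ones have the same sign in SMA. Ccl6 and H2-Aa lie near 0 in SMA, and Arg1 is positive there but smaller than in WT.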

How the data were processed

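The BaCl2 libraries were deposited as whole read counts per gene for 56953 genes. The glycerol libraries were deposited as a signal, the authors' normalized counts, for 14330 genes with a lowest mean of 7.79, and hold no mitochondrial genes. The submitters' processing notes name fastp, Salmon, featureCounts and DESeq2 without their roles; the genome build is not given in the sources used here. Another 6 columns with sample names hold scaled values and were not used.

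Genes were matched by identifier without version, each library was scaled to ppm over the 14302 shared genes, and log2(ppm + 1) was compared with Python 3 (pandas, numpy), without p-values. Calls needed a mean of 1 ppm, a difference of 1 and no overlap of libraries. The calling was tested on simulated counts drawn from the BaCl2 means for both injuries, with known changes added. These held no difference between tables in how genes are counted, so they cannot show false calls of that kind. Genes in both tables held all but 1.85 to 2.12% of the BaCl2 counts. Correlations of log2 values were 0.993 to 0.997 within an injury and 0.943 to 0.945 between injuries.

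Named genes are the 12 largest calls in each direction with a mean of at least 10 ppm, again among distinct genes, up to 4 called members of each of the biological gene lists (51 lists in all), 8 fixed fat and FAP genes, and those said to be chosen later. Predicted, pseudogene, mitochondrial, histone and ribosomal protein genes were skipped among the 12 largest. Members and lists were chosen with earlier results of these data known. Alternatives were other scalings, pseudocounts, minimums and folds, leaving out each library, and, chosen after seeing the data, the distinct class, its limits and a GC correction.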

Additional observations from a re-analysis of the deposited data

Results flagged for a closer look

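In 119 sets of values (named genes and summed lists) the 4 WT glycerol libraries were searched for 1 library far from the other 3, which chance finds in about 1 of 20 such sets. It was found in 6, which is near that rate. Cd36 was at 247 ppm in glycerol library 1 and at 191 to 199 ppm in the others, all above the BaCl2 libraries. C1qtnf5 was at 49.4 ppm in library 1 and 58.1 to 59.0 ppm in the others, and Ptp4a1 at 630 ppm in library 4 and 518 to 533 ppm in the others; both are genes that share exons with another. Wdr41 was at 1.67 ppm in library 2 and 0.256 to 0.278 ppm in the others. Summed myofibre markers were at 16.04 ppm in library 3 against 9.97 to 10.9 ppm, and summed mast cell markers at 8.81 ppm in library 4 against 2.96 to 3.79 ppm.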

How the results depend on the processing

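No paired analysis was possible because no test was run across the tables and the shared replicate numbers belong to libraries of separate injuries. Of 101 named genes with values, none had its call reversed, 53 kept their side of the call under all alternatives and 95 with each library left out. Those that did not with a library left out were Crabp1, H2-Eb1, Il1b, Klf2, Loxl2 and Msr1. The 4-fold limit is among the alternatives, and called genes with an absolute difference under 2 lose their call there by definition. It took the call from 46 of the named genes. Leaving out 1 library gave 526 to 570 higher and 126 to 139 lower genes, and 75 to 94 and 75 to 91 among distinct genes. Over all compared genes, higher calls numbered 325 with a pseudocount of 5, 283 with a minimum of 10 ppm, 228 at 4-fold, 1039 at 1.5-fold and 121 with shares over distinct genes alone; lower calls were 73, 76, 35, 442 and 70, and 197 with a pseudocount of 0.1. Among distinct genes, higher calls were 121 with a pseudocount of 0.1, 35 with 5, 37 with a minimum of 10 ppm, 11 at 4-fold, 270 at 1.5-fold, 121 with shares over distinct genes alone, and 44 and 156 with limits of 1% and 20% for the distinct class. Lower calls there were 135, 41, 46, 15 and 364 in the same order, and 70 with shares over distinct genes alone. With shares over distinct genes alone, medians were 0.16 for mature fat genes, -0.29 for collagens, 0.40 for glycolysis and hypoxia and -0.42 for glucocorticoid targets. GC centring gave -0.22 for collagens and 0.41 for glycolysis and hypoxia, which had 0.21 with a pseudocount of 5 and 0.22 with a minimum of 10 ppm. Glucocorticoid targets had -0.61 with that minimum and -0.60 to -0.39 leaving out 1 library. The causes were not tested. The interferon median was 0.61 to 0.98 leaving out 1 library, and its called distinct members 2 to 12. Among all compared genes, 80.7% of calls were higher, and 71.9% with ranks. With shares over distinct genes alone, which compares only those genes, 63.4% were. The main setting gave 79 higher and 80 lower calls among distinct genes. The unknown depth of the glycerol values limits low genes.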

Other observations

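Several pathways with a part in FAP fate were also looked at. None of the 10 distinct hedgehog genes, 13 Wnt genes, 30 BMP and TGF-beta genes or 22 unfolded protein response genes was called. None of the 26 distinct cell cycle genes was called. Of all distinct genes 0.819% were called higher and 0.83% lower, so lists of this size hold few calls in any case. Genes that handle glycerol itself gave no call among 4 distinct members compared, with Gpd2, the mitochondrial glycerol phosphate dehydrogenase, at 21.0 to 24.4 ppm after BaCl2 and 28.5 to 29.7 ppm after glycerol. Of the osmotic stress genes, Slc5a3, the inositol transporter, was at 65.5 to 72.8 against 78.4 to 101 ppm.

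Lars2, a mitochondrial leucyl-tRNA synthetase gene, was at 108, 122 and 115 ppm after BaCl2 and at 830, 607, 617 and 519 ppm after glycerol, with a difference of 2.41 in SMA. Agt, which encodes angiotensinogen and was named after its values were seen, was at 9.82 to 12.5 ppm after BaCl2 and 1.87 to 2.92 ppm after glycerol in WT (difference -1.80), and had a difference of -0.44 in SMA.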
